A study of Mus musculus with 18 samples.

Results

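The transcription factors of the naive pluripotent state were followed in mouse embryonic stem cells (ESCs) during differentiation with retinoic acid. Members were chosen by gene name: Klf2, Klf4, Klf5, Esrrb, Tfcp2l1, Tbx3, Prdm14, Nr0b1, Zfp42 and Nr5a2, which are 10 of the 21995 genes in the count table. All 10 passed the filter on low counts, so each was tested among 18352 genes. RNA-seq was run on cells of the genotype labelled Parental (also labelled WT) and of the genotype labelled Oct1_cKO (also labelled KO), taken at day 0, day 2 and day 6. Day 0 cells are labelled ESCs, and at day 2 and day 6 the cells had been plated on 0.01% gelatin in DMEM with 1.5 ug/ml retinoic acid, non-essential amino acids, L-glutamine, penicillin and streptomycin. Each of the 6 groups held 3 libraries. Oct1 is the product of Pou2f1, a POU factor that binds the octamer DNA motif. The labels do not say how the conditional allele was deleted or whether each line is a clone. Nor do they name separate cultures for the 3 libraries of a group, so p-values describe library-to-library spread that can be technical.

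Naive pluripotency is the state of the epiblast before implantation and of mouse ESCs kept with leukaemia inhibitory factor (LIF). Its factors form a network around Oct4, Sox2 and Nanog: LIF signalling through Stat3 feeds Klf4 and Tfcp2l1, and inhibition of the kinase Gsk3 relieves Tcf7l1 repression of Esrrb, Klf2 and Tfcp2l1. The factors are partly redundant, and they are switched off as cells leave the naive state. Several act again later in other lineages, such as Klf4 and Klf5 in epithelia, Tbx3 in limb and heart, and Nr5a2 in endoderm derivatives.

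Libraries held 13694126 to 19296966 counts. CPM is the read count relative to library size, scaled by trimmed mean of M values (TMM). Pou2f1 stood at 124 to 135 CPM in parental and 62.4 to 88.2 CPM in Oct1 cKO libraries at day 0, and each cKO library was below each parental one at all 3 days, although its counts were not lost. The ESC label at day 0 was checked with 6 marker genes (Pou5f1, Sox2, Nanog, Sall4, Lin28a and Utf1), which summed to 2826 to 2875 CPM in parental and 3596 to 3986 CPM in cKO libraries, with none at 0. Replicate 3 of the cKO at day 0 stood apart from the other 2 of its group, with a chi-square per degree of freedom of 10.8 and 10.4 against 1.22 between those and 1.71 to 6.78 within the other groups. Results that change without it are given beside each gene. In bulk RNA, fewer cells that express a gene and less RNA per cell cannot be told apart.

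The naive factors fell in both genotypes. Klf4, Klf5, Tfcp2l1 and Prdm14 were called higher in the Oct1 cKO at all 3 days, Klf2 and Nr5a2 were lower at day 0, and Tbx3 was lower at day 6. Between day 0 and day 2, 10 of 10 were lower in parental cells and 10 of 10 in cKO cells, against 37.7% and 35.5% of all tested genes called lower. At day 2 the parental members held between 0.876% (Prdm14) and 15.7% (Klf5) of their day 0 level, with a median of 3.93%. The cKO members held between 2.13% (Prdm14) and 31.4% (Klf5), with a median of 5.70%. By day 6 the medians were 1.30% in parental and 3.49% in cKO cells, with members from 0 counts (Prdm14) to 24.3% (Tbx3) in parental and from 0.0441% (Nr0b1) to 30.3% (Klf5) in cKO cells. All 10 were called lower at day 6 than at day 0 in both genotypes, against 40.2% of tested genes in parental and 40.4% in cKO cells. Between day 2 and day 6 the members parted. In parental cells Klf4, Tbx3 and Nr5a2 were called higher and 7 lower, against 42.6% and 36.9% of tested genes, and in the cKO Klf4 was higher and 8 were lower, against 39.6% and 41.6%.

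**Figure D1:**
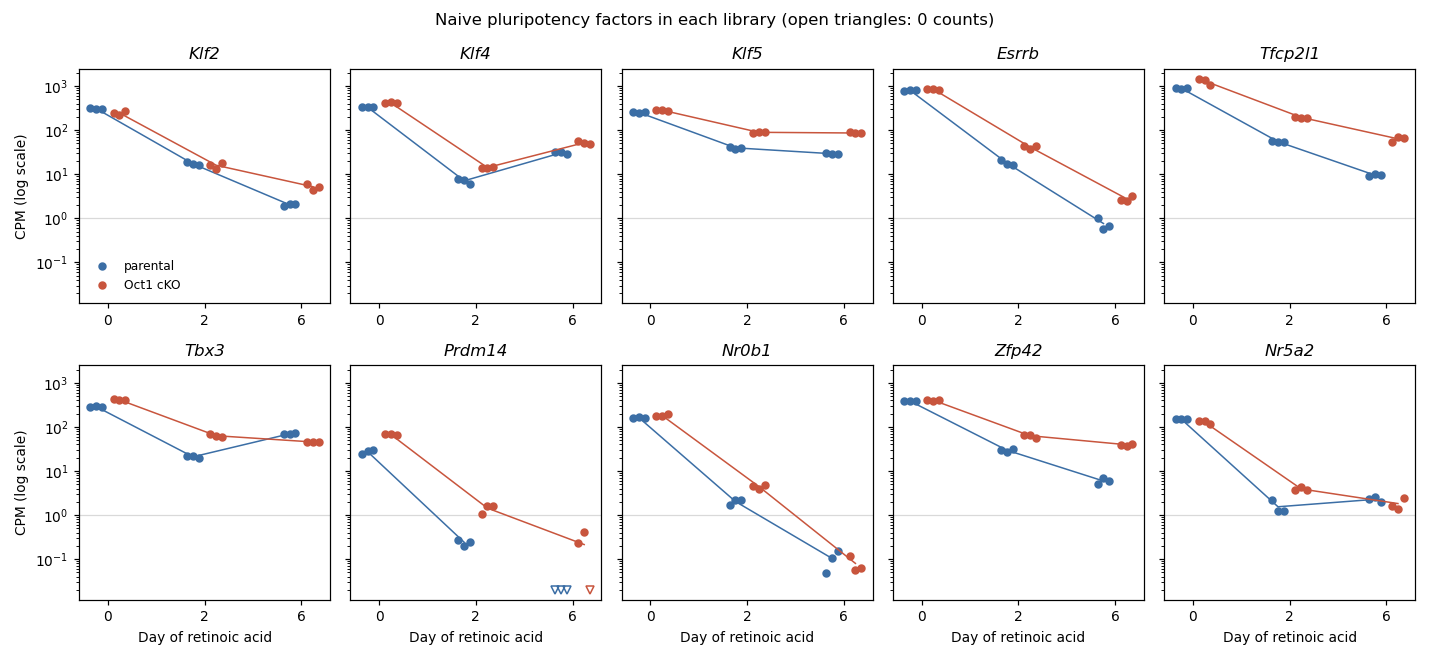
CPM (log axis) of each factor in every library, by day (axis positions not to scale), with lines through group means. Parental libraries are blue and Oct1 cKO libraries red, and open triangles mark libraries with 0 counts. Every factor is highest at day 0; Klf4 rises again from day 2 to day 6 in both genotypes and Tbx3 in the parental cells.

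The median difference between genotypes was smaller at day 0 than at day 2 and day 6. At day 0, edgeR's quasi-likelihood test with Benjamini-Hochberg adjustment called 6 members higher and 2 lower in the Oct1 cKO. The shares of all tested genes were 26.4% in the higher and 27.0% in the lower direction. The median log2 fold change of the members was 0.16, and 0.00 over all tested genes. At day 2, 9 of 10 were called higher and the other, Klf2, was not called, against 33.7% of tested genes higher and 33.6% lower, and the median was 1.18, against -0.01. At day 6, 7 were called higher and 1 lower, against 36.7% and 37.8%. Their fitted median was 1.46 at that day, and it was 1.36 over 9 members with Prdm14 set to the lower bound that its 0 counts allow and Nr0b1 left out. Libraries of both genotypes did not overlap for 10 members at day 0, 9 at day 2 and 7 at day 6. Over all tested genes this held for 57.6%, 71.0% and 76.8%. The day 0 share thus includes small differences that the test did not call.

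**Figure D2:**
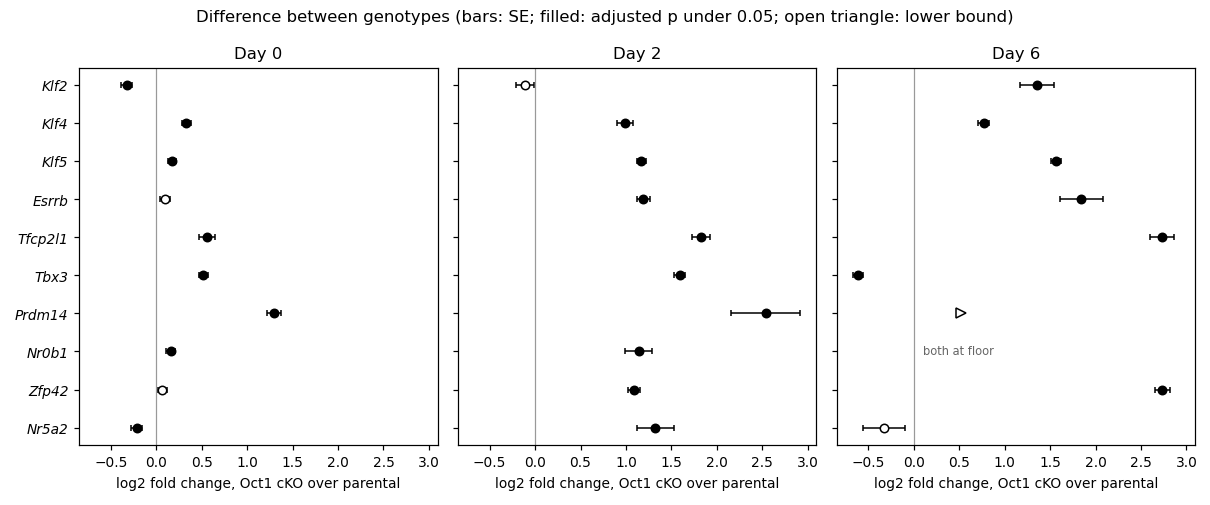
Log2 fold change of Oct1 cKO over parental cells for each factor at day 0, 2 and 6, except Nr0b1 at day 6, which is marked as both at floor. Bars are SE, filled points have edgeR adjusted p under 0.05, and the open triangle is a lower bound. Prdm14 has the largest difference at day 0 (1.30) and at day 2 (2.54), and Tbx3 changes from higher at day 0 and 2 to lower at day 6.

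The change from day 0 to day 2 itself differed between genotypes. For 9 of 10 members the fall was called shallower in the cKO by a genotype by day interaction, which was called in that direction for 30.1% of tested genes. From day 0 to day 6 the interaction was called higher for 7 members (32.0% of tested genes) and lower for Tbx3 (31.9%). Prdm14 is among the 7 by a fitted value that rests on 0 counts. These interactions use the same libraries as the comparisons above, so they are not further evidence of the same difference. An interaction from day 2 to day 6 was added after the counts were seen. It called 5 members higher and 2 lower, against 31.5% and 32.0% of tested genes.

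Klf2, Klf4 and Klf5 are Krüppel-like zinc finger factors that bind GC-rich and CACCC sequences, and they can replace each other in part in maintaining ESCs. Klf2 (ENSMUSG00000055148, GRCm38 chromosome 8, 72319033 to 72321656, plus strand) is a target of Oct4 and of Gsk3 inhibition. It stood at 315, 308 and 302 CPM in parental libraries at day 0 and at 240.0, 223 and 273 CPM in the cKO. At day 2 it held 18.5, 17.3 and 15.9 CPM in parental and 16.4, 13.4 and 18.2 CPM in cKO libraries. The day 6 values were 1.94, 2.08 and 2.09 CPM against 6.07, 4.46 and 5.15 CPM. Klf2 was thus lower in each cKO library at day 0, overlapped at day 2 and was higher in each at day 6. The log2 fold change of cKO over parental cells at day 0, 2 and 6 was -0.33 ± 0.06, -0.12 ± 0.10 and 1.36 ± 0.19 (SE), with edgeR adjusted p of 5.33e-05, 0.304 and 1.25e-07. Scaled by library size only, Klf2 was called lower at day 2 (-0.31, adjusted p = 0.00455, where all alternatives span 0.00455 to 0.986). Klf2 fell 17.9-fold by day 2 in parental and 15.3-fold in cKO cells, and this step was not called different (interaction 0.21 ± 0.12, adjusted p = 0.122). That interaction was called without replicate 3 of the cKO at day 0 (0.30, adjusted p = 0.00646) and without replicate 2 of the cKO at day 2 (0.33, adjusted p = 0.0129), and its adjusted p lay between 0.00646 and 0.815 in all alternatives. From day 2 to day 6 the parental cells fell further, by 3.08 ± 0.14 on the log2 scale, against 1.61 ± 0.13 in the cKO, an interaction of 1.47 ± 0.21 (adjusted p = 4.17e-07).

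Klf4 (ENSMUSG00000003032, chromosome 4, 55527143 to 55532466, minus strand) is a direct target of Stat3. Parental libraries held 329, 338 and 330.0 CPM at day 0 and cKO libraries 414, 425 and 415 CPM. At day 2 the values were 7.77, 7.57 and 6.03 CPM against 14.1, 13.7 and 14.9 CPM. At day 6 they were 31.9, 31.6 and 28.1 CPM against 55.5, 51.8 and 48.8 CPM. The cKO libraries were above the parental ones at every day, and Klf4 was lowest at day 2 in both genotypes. The log2 differences at day 0, 2 and 6 were 0.33 ± 0.05, 0.99 ± 0.09 and 0.77 ± 0.06, with adjusted p of 3.74e-07, 3.64e-12 and 3.09e-14. Klf4 rose again from day 2 to day 6, by 2.10 ± 0.08 in parental and 1.87 ± 0.07 in cKO cells, and it was the only member that rose over that step in both. This rise was not called different between genotypes (-0.22 ± 0.11, adjusted p = 0.075).

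Klf5 (ENSMUSG00000005148, chromosome 14, 99298691 to 99315036, plus strand), which is also needed for the first epithelial layers of the embryo, kept more of its level than any other member at day 2. It stood at 258, 246 and 255 CPM in parental and 285, 293 and 278 CPM in cKO libraries at day 0. At day 2 it stood at 42.6, 37.8 and 38.9 CPM against 87.3, 91.6 and 89.7 CPM. At day 6 it stood at 30.6, 28.2 and 29.0 CPM against 89.3, 85.2 and 84.6 CPM. The groups did not overlap at any day, and the gap widened with time. On the log2 scale it was 0.17 ± 0.05, 1.17 ± 0.05 and 1.56 ± 0.05, with adjusted p of 0.00159, 3.78e-21 and 1.85e-25. In the cKO the day 2 and day 6 libraries overlapped (-0.05 ± 0.05, adjusted p = 0.331), while the parental cells fell by 0.45 ± 0.06 over that step (adjusted p = 5.7e-09). Scaled by library size only, the cKO step was called lower (-0.24, adjusted p = 4.9e-05, with 4.9e-05 to 0.573 over the alternatives).

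Esrrb, Nr5a2 and Nr0b1 belong to the nuclear receptor superfamily. Esrrb, an orphan receptor with constant activity, is a target of Nanog and of Gsk3 inhibition (ENSMUSG00000021255, chromosome 12, 86361117 to 86521628, plus strand). It stood at 794, 813 and 797 CPM in parental and 862, 871 and 827 CPM in cKO libraries at day 0, a difference that was not called (0.09 ± 0.06, adjusted p = 0.171). At day 2 it stood at 21.3, 16.9 and 16.2 CPM against 44.0, 38.1 and 42.7 CPM. At day 6 only 21, 11 and 13 counts were left in the parental libraries (1.04, 0.571 and 0.679 CPM) and 45, 42 and 51 in the cKO (2.68, 2.43 and 3.24 CPM). Each cKO library was above each parental one at both days. The log2 differences at day 2 and day 6 were 1.19 ± 0.08 and 1.84 ± 0.24, with adjusted p of 8.29e-16 and 1.16e-08. Over 6 days Esrrb fell 1048-fold in parental and 307-fold in cKO cells, an interaction of 1.75 ± 0.24 (adjusted p = 9.31e-08). From day 2 to day 6 the interaction was 0.65 ± 0.26 (adjusted p = 0.0268). It was no longer called without parental day 6 replicate 2 (0.54, adjusted p = 0.0894) or 3 (0.63, adjusted p = 0.0571) or cKO day 6 replicate 3 (0.53, adjusted p = 0.0915). Without parental replicate 1 it was 1.01, and adjusted p ran from 0.00348 to 0.0915 over the alternatives.

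Nr5a2 (ENSMUSG00000026398, chromosome 1, 136842571 to 136960448, minus strand) binds nearly the same DNA element as Esrrb, as a monomer, and regulates Pou5f1. Parental libraries held 151, 148 and 150.1 CPM at day 0 and cKO libraries 136, 136 and 114 CPM, a difference of -0.22 ± 0.06 (adjusted p = 0.00459). Without replicate 3 of the cKO it was -0.14 (adjusted p = 0.0288, with 0.00199 to 0.0328 over the alternatives). At day 2 the order was reversed, with 2.17, 1.21 and 1.25 CPM in parental and 3.74, 4.26 and 3.74 CPM in cKO libraries (1.32 ± 0.20, adjusted p = 7.4e-07). At day 6 the libraries overlapped, with 2.34, 2.54 and 1.93 CPM against 1.61, 1.39 and 2.48 CPM (-0.33 ± 0.23, adjusted p = 0.19). The day 6 difference was called without replicate 3 of the cKO (-0.60, adjusted p = 0.032) and with scaling by library size only (-0.53, adjusted p = 0.0418), with 0.032 to 0.565 over the alternatives. Nr5a2 fell 97.0-fold by day 2 in parental cells and 33.0-fold in cKO cells, the largest interaction of the members over that step (1.54 ± 0.21, adjusted p = 1.56e-07). In the cKO it fell further to day 6, by 1.11 ± 0.21 (adjusted p = 1.1e-05). The interaction was -1.65 ± 0.30 over that step (adjusted p = 1.47e-05) and -0.11 ± 0.23 from day 0 to day 6 (adjusted p = 0.705). The parental value from day 2 to day 6 was 0.54 ± 0.22 (adjusted p = 0.0269), with overlapping libraries. It was not called without parental replicate 2 (0.33, adjusted p = 0.206) or 3 of day 2 (0.34, adjusted p = 0.195), without replicate 1 (0.45, adjusted p = 0.104) or 2 of day 6 (0.39, adjusted p = 0.158), with the DESeq2 size factors (0.46, adjusted p = 0.0601), with library size only (0.36, adjusted p = 0.152) and in a fit of the compared libraries only (0.45, adjusted p = 0.0585). Without parental replicate 1 of day 2 it was 0.82 (adjusted p = 0.00287).

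Nr0b1 (Dax1) is an X-linked receptor that lacks the usual DNA-binding domain and acts as a partner and inhibitor of Oct4 and Nr5a2 (ENSMUSG00000025056, chromosome X, 86191764 to 86195947, plus strand). At day 0 it stood at 162, 167 and 160 CPM in parental and 173, 176 and 196 CPM in cKO libraries (0.16 ± 0.05, adjusted p = 0.00896). Without cKO replicate 3 it was not called (0.10, adjusted p = 0.0737, with 0.00184 to 0.0737 over the alternatives). At day 2 the values were 1.72, 2.22 and 2.14 CPM against 4.62, 3.91 and 4.88 CPM (1.14 ± 0.15, adjusted p = 3.1e-08). Each cKO library was above each parental one at both days, by a wider gap at day 2 (interaction 0.98 ± 0.16, adjusted p = 2.31e-06). At day 6 it was at the limit of detection in both genotypes, with 1, 2 and 3 counts in parental and 2, 1 and 1 in cKO libraries. A count of 0 at this depth is compatible with up to 3 counts, so no fold between genotypes is given. From day 0 to day 6 its CPM fell 1592-fold in parental cells (exact 95% interval 731 to 4338) and 2276-fold in cKO cells (888 to 8354). These intervals cover counting error only, and they overlap. The fitted interactions to day 6, -0.48 ± 0.80 from day 0 (adjusted p = 0.647) and -1.47 ± 0.84 from day 2 (adjusted p = 0.153), rest on these few counts and were not called.

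Tfcp2l1 (ENSMUSG00000026380, chromosome 1, 118627945 to 118685168, plus strand), a grainyhead-like factor, is a Stat3 target that can replace LIF signalling in ESCs when forced. It stood at 904, 877 and 898 CPM in parental libraries at day 0 and 1454, 1400.0 and 1085 CPM in the cKO. At day 2 it held 58.2, 53.5 and 53.0 CPM against 200, 193 and 193 CPM. At day 6 it held 9.10, 10.1 and 9.55 CPM against 54.3, 68.8 and 68.1 CPM. Every cKO library lay above every parental one, and replicate 3 of the cKO at day 0 was lowest of its group. The log2 difference grew from 0.56 ± 0.09 to 1.83 ± 0.10 and 2.73 ± 0.13 over the 3 days, with adjusted p of 5.5e-05, 5.56e-11 and 3.67e-12. Both steps differed between genotypes, by 1.27 ± 0.13 from day 0 to day 2 (adjusted p = 3.83e-07) and 0.90 ± 0.17 from day 2 to day 6 (adjusted p = 0.000162). At day 6 the cKO cells held 4.85% and the parental cells 1.07% of the day 0 level.

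Tbx3 (ENSMUSG00000018604, chromosome 5, 119670669 to 119684724, plus strand) is a T-box factor that supports Nanog in ESCs and can drive extraembryonic endoderm and mesoderm fates. Its libraries changed order with time. At day 0 it stood at 288, 292 and 282 CPM in parental and 423, 408 and 403 CPM in cKO cells, and at day 2 at 21.4, 21.8 and 19.6 CPM against 69.2, 61.6 and 58.5 CPM. At day 6 it stood at 67.8, 70.4 and 71.0 CPM against 46.5, 45.4 and 44.5 CPM. The difference went from 0.52 ± 0.05 (adjusted p = 6.91e-12) to 1.59 ± 0.06 (adjusted p = 2.27e-23) and then to -0.62 ± 0.06 (adjusted p = 8.58e-13), with no overlap at any day. From day 2 to day 6 Tbx3 rose by 1.74 ± 0.06 in parental cells (adjusted p = 8.5e-26) and fell by 0.47 ± 0.06 in cKO cells (adjusted p = 1.23e-09). The interaction over this step, -2.21 ± 0.08 (adjusted p = 7.77e-24), was the largest in size among the members with called values. The antisense gene Tbx3os1 overlaps the start of Tbx3 and the counting is not stated to use strand, so reads of the pair cannot be told apart where they overlap. Tbx3os1 held 107 to 131 counts in parental and 28 to 38 in cKO libraries at day 6, at most 9.63% of the Tbx3 counts.

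Prdm14 (ENSMUSG00000042414, chromosome 1, 13113457 to 13127163, minus strand) represses Fgf receptor signalling and DNA methyltransferases in ESCs and is needed for germ cells. It was the least abundant member at day 0 in parental libraries, with 24.7, 28.3 and 29.4 CPM, and held 69.8, 67.4 and 65.6 CPM in the cKO (1.30 ± 0.08, adjusted p = 4.12e-16). It was the only member that differed at least 2-fold at day 0. At day 2 it was near the floor, with 6, 4 and 5 counts in parental and 17, 28 and 24 in cKO libraries. The ratio was 5.96 (exact 95% interval 3.37 to 11.2, counting error only), and the fitted log2 difference was 2.54 ± 0.38 (adjusted p = 3.22e-07). At day 6 it had 0 counts in each parental library, and 4, 7 and 0 in the cKO. Against a floor of 3 counts per library this is at least 1.44-fold higher in the cKO. The size of the fitted value depends on edgeR's prior count. The edgeR test called the difference (adjusted p = 0.000751) on 11 counts against 0, although replicate 3 overlapped the parental cells. Without replicate 2 the adjusted p was 0.0131 (5.18e-05 to 0.0131 over the alternatives), and the fitted interaction from day 0 to day 6 was no longer called (2.87, adjusted p = 0.0761, with 0.00243 to 0.0761). Over 6 days Prdm14 fell at least 179-fold in parental cells and 306-fold in cKO cells (171 to 613), so these counts do not order the falls. Without cKO day 6 replicate 2 the fitted fall in the cKO went from -8.21 to -9.02 on the log2 scale. The fitted interaction from day 2 to day 6 was 2.44 ± 1.35 (adjusted p = 0.115), and it was called without cKO day 6 replicate 3 (2.98, adjusted p = 0.0401, where all alternatives span 0.0401 to 0.234).

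Zfp42 (Rex1), a zinc finger factor related to Yy1, is the usual reporter gene of the naive state (ENSMUSG00000051176, chromosome 8, 43295063 to 43306980, minus strand). In the cKO only Klf5 and Tbx3 changed less from day 2 to day 6. Day 0 libraries held 382, 385 and 385 CPM in parental and 410.2, 388 and 409 CPM in cKO cells, a difference that was not called (0.07 ± 0.05, adjusted p = 0.279). At day 2 they held 29.96, 27.4 and 31.7 CPM against 65.7, 66.6 and 57.1 CPM (1.09 ± 0.06, adjusted p = 8.77e-18). At day 6 they held 5.17, 6.80 and 5.79 CPM against 39.3, 37.7 and 41.2 CPM (2.73 ± 0.08, adjusted p = 4.65e-27). The groups did not overlap at day 2 or day 6, and Tfcp2l1 had the same log2 difference at day 6. From day 2 to day 6 Zfp42 fell by 2.33 ± 0.09 in parental and by 0.68 ± 0.06 in cKO cells, an interaction of 1.64 ± 0.11 (adjusted p = 3.79e-16). The processed pseudogene Zfp42-ps1 on chromosome 15 aligned to a Zfp42 transcript at 98.1% identity over 266 bases, so the 2 can share reads. Its counts were 2.70 to 8.41% of those of Zfp42 over the 18 libraries.

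RefSeq promoter windows (GRCm38.p6, 250 bases before to 50 after a start site) were matched by symbol for 7 members (not Klf5, Tbx3 or Prdm14), as 9 windows. They were searched on both strands for the octamer ATGCAAAT, the Klf motif GGGTGTGG, TCAAGGTCA (bound by Esrrb and Nr5a2), TTCCNGGAA (Stat3), CCATNTT (Yy1 and Zfp42) and the direct repeats bound by retinoic acid receptors. Of these, only Zfp42 held a match: an octamer that begins 186 bases and a Klf motif that begins 75 bases before the start site, both on the opposite strand. Among all 32851 windows, 1.74% held an octamer and 3.56% the Klf motif. The shares for the other motifs were 0.423% for TCAAGGTCA, 1.15% for TTCCNGGAA, 16.1% for CCATNTT and 0.0335% for the receptor repeats. The Zfp42 window (chr8:43306960-43307259, minus strand) is shown for its matches, in capitals, and those of Tfcp2l1 (chr1:118627695-118627994, plus strand) and Klf2 (chr8:72318812-72319111, plus strand), the members with the profiles closest to Zfp42, hold none of these letters. No binding was measured in these libraries.
Zfp42: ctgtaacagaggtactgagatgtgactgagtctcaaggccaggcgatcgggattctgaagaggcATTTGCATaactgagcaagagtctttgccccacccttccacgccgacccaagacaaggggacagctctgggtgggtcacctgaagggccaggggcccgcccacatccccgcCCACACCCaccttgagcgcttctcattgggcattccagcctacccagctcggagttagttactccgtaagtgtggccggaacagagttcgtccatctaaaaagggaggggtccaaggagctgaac
Tfcp2l1: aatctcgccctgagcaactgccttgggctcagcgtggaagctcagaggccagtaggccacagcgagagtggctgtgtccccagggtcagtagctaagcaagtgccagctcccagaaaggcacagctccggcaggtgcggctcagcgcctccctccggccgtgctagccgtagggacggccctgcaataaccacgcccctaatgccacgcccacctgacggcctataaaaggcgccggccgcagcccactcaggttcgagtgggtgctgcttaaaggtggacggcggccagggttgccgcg
Klf2: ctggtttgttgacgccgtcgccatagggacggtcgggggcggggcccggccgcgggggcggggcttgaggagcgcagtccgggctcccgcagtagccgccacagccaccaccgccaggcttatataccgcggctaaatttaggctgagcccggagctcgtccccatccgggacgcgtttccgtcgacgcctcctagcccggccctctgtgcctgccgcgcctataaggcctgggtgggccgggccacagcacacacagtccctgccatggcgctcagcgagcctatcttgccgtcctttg

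**Figure D3:**
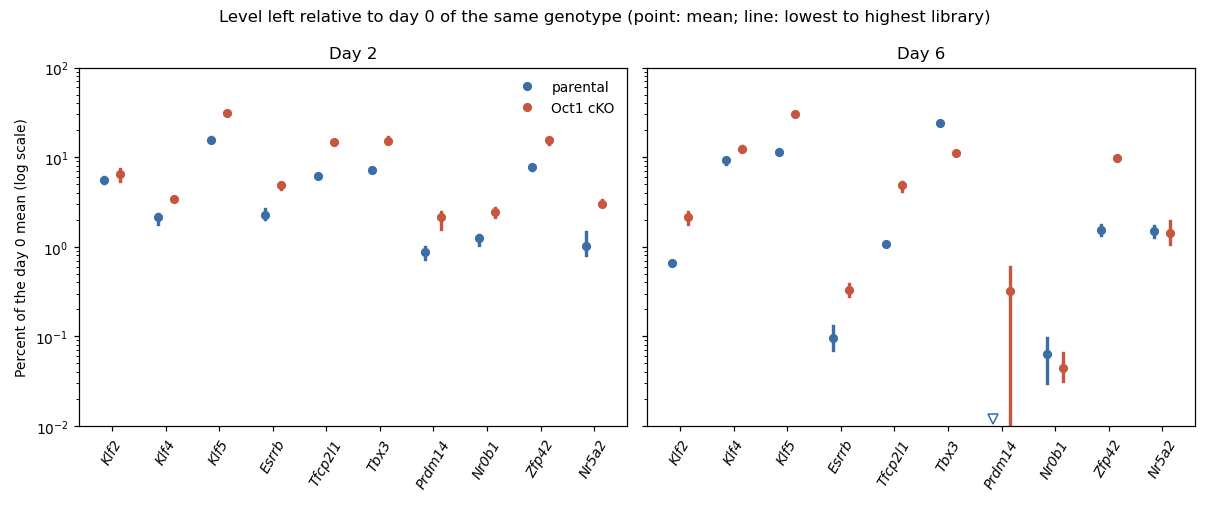
Level of each factor at day 2 and day 6 as a percent of the day 0 mean of its own genotype (log axis); points are means of 3 libraries, lines run from the lowest to the highest library, and the open triangle marks 0 counts. At day 2 the cKO means lie above the parental ones for all 10 factors, and at day 6 Tbx3, Nr5a2 and Nr0b1 have the higher mean in parental cells. For Nr5a2 and Nr0b1 the libraries of the genotypes overlap at day 6, and Nr0b1 is at the limit of detection.

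Levels can be compared between genes per kb of exon (CPM divided by the exon length of the GENCODE M21 model, which may not be the annotation behind the counts). In parental ESCs the order was Zfp42 (204 CPM per kb), Klf2 (167), Esrrb (132), Klf4 (109), Tfcp2l1 (94.6), Nr0b1 (90.2), Klf5 (48.7), Tbx3 (43.4), Nr5a2 (25.4) and Prdm14 (10.7), and no neighbours in this order overlapped between libraries. In the cKO at day 0 the libraries of Esrrb (141), Tfcp2l1 (139), Klf4 (137) and Klf2 (133) overlapped each with the next, and Prdm14 (26.4) stood above Nr5a2 (21.8). The members thus began among the more abundant genes. In parental cells at day 0, Zfp42 lay above 99.0% of tested genes and Prdm14 above 73.6%. After 6 days the parental order was led by Tbx3 (10.5) and Klf4 (10.01), which overlapped, and then Klf5 (5.62). In the cKO it was led by Zfp42 (20.9), followed by Klf4 (17.1) and Klf5 (16.6), which overlapped. Esrrb, the third in parental ESCs, was the eighth in parental cells at day 6, at 0.126 CPM per kb.

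**Figure D4:**
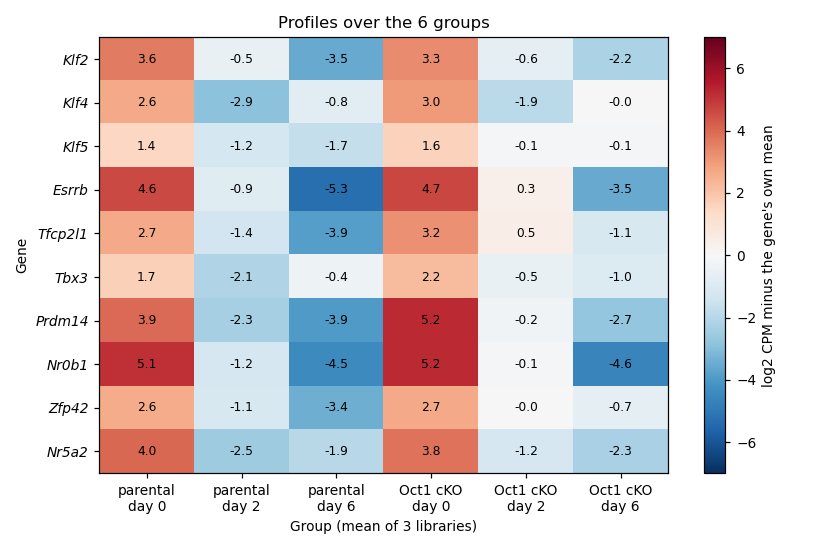
Mean log2 CPM of each factor in the 6 groups, minus the factor's own mean over groups (colour and number in each cell, log2 units). Esrrb, Nr0b1 and Prdm14 span the widest range, and Klf5 and Tbx3 the narrowest.

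Profiles were compared by the root mean square difference of 6 group means of log2 CPM, each profile centred at its own mean, so a value of 0 means parallel courses. Among the 10 members the closest were Tfcp2l1 and Zfp42 (0.41), then Esrrb and Nr0b1 (0.66) and Klf5 and Tbx3 (0.80). The farthest apart were Klf5 and Nr0b1 (3.02). Among the 11962 other genes searched (mean log2 CPM 1 or above), the nearest to Klf5 was Hspbap1 (0.22), to Zfp42 Chmp4c (0.27), to Esrrb Ttn (0.36) and to Tfcp2l1 Ildr1 (0.41). Klf2 was nearest to Zscan10 (0.44), a zinc finger factor of ESCs, and Tbx3 to Spry2 (0.44), an inhibitor of receptor tyrosine kinase signalling. Spry2 went from 172 CPM at day 0 to 15.8 at day 2 and 42.5 at day 6 in parental cells, and from 179 to 26.5 and 13.4 in the cKO. Nr0b1 was nearest to Mep1b (0.55) and then Nanog (0.66), Nr5a2 to Notum (0.56), Klf4 to Id4 (0.63) and Prdm14 to Tcl1 (0.86), a cofactor of Akt kinase. These distances describe 6 group means and carry no test.

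The rest of the network was read from lists of other genes. Beside their counts stand the shares of all tested genes, which were 26.4% higher and 27.0% lower in the cKO at day 0, 33.7% and 33.6% at day 2, and 36.7% and 37.8% at day 6. Of 8 core and general pluripotency genes, the cKO had 4 higher and 1 lower at day 0, with a median log2 fold change of 0.18. It had 6 higher and 2 lower at day 2, with a median of 1.04, and 5 higher and 1 lower at day 6, with a median of 2.06. At day 6 Pou5f1, which encodes Oct4, stood at 0.362 CPM in parental and 30.9 CPM in cKO cells (6.40 ± 0.18, adjusted p = 1.94e-22). Nanog, picked after its values were seen, stood at 1.34 and 0.342 CPM. Utf1, a chromatin factor of ESCs, stood at 1.03 CPM in parental and 18.7 CPM in cKO cells (4.18 ± 0.17, adjusted p = 9.65e-21) and Sall4 at 23.7 and 135 CPM (2.51 ± 0.05, adjusted p = 5.66e-32). Of 13 other genes of the naive state, 7 were higher and 3 lower at day 0 (median 0.28). The lower ones were Dppa3 (77.7 and 15.5 CPM), Pecam1 (276.7 and 105.5 CPM) and Tfap2c (60.3 and 22.8 CPM). From this list 9 were higher and 3 lower at day 2 (median 0.99), and 9 higher and 2 lower at day 6 (median 1.19). The higher genes at day 6 include Tfap2c (38.8 and 246 CPM), which is also counted below among the trophoblast and germ cell markers. Jam2, a junction protein of ESCs, was higher in the cKO at day 2 (5.90 and 34.8 CPM, 2.55 ± 0.09, adjusted p = 1.64e-23). Gbx2, a homeobox Stat3 target, was lower (27.5 and 4.48 CPM, -2.62 ± 0.11, adjusted p = 1.59e-22). Dppa5a, an RNA-binding protein of ESCs, was higher at day 6 (4.59 and 61.1 CPM, 3.73 ± 0.09, adjusted p = 9.83e-30).

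The listed LIF signalling genes (Lifr, Il6st, Jak1, Jak2, Stat3, Socs3, Pim1 and Pim3) did not share a direction at day 0 or day 2. Of 8 genes, 1 was higher and 4 lower in the cKO at day 0 (median -0.20), 4 higher and 3 lower at day 2 (median 0.04), and 6 higher and 1 lower at day 6 (median 0.70). Il6st, the shared receptor chain gp130, was lower at day 0 (192 and 93.2 CPM, -1.04 ± 0.06, adjusted p = 1.2e-16), and Stat3 was lower at day 2 (148 and 79.8 CPM, -0.89 ± 0.05, adjusted p = 4.78e-18). Lifr was higher at day 2 (30.8 and 53.1 CPM, 0.78 ± 0.07, adjusted p = 4.57e-13). Of 9 regulators of exit from the naive state, 5 were higher and 1 lower at day 2 (median 0.15), among them Rbpj, the Notch pathway factor (125 and 308 CPM, 1.30 ± 0.05, adjusted p = 4.38e-23). Of these regulators, 3 were higher and 3 lower at day 0 (median 0.08), and 6 higher and 3 lower at day 6 (median 0.12). Tcf7l1, which represses Esrrb and Klf2, was among those higher at day 6 (64.4 and 123.5 CPM, 0.94 ± 0.05, adjusted p = 9.49e-19). Of 14 genes of the formative and primed state, 6 were higher and 4 lower at day 0 (median 0.10). At day 2, 5 were higher and 6 lower (median 0.18), and at day 6, 5 higher and 6 lower (median -0.61). The day 2 and day 6 counts lie near the shares of all tested genes, 33.7% and 33.6% at day 2 and 36.7% and 37.8% at day 6. Among 12 tested Klf paralogues, 3 were higher and 6 lower at day 0 (median -0.09). At day 2, 6 were higher and 5 lower (median 0.37), and at day 6, 8 higher and 2 lower (median 0.61). Klf6 stood at 144 CPM in parental and 389 CPM in cKO cells at day 6 (1.44 ± 0.05, adjusted p = 1.39e-25), and Klf3 at 115 and 37.2 CPM (-1.63 ± 0.06, adjusted p = 1.57e-24).

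Markers of other cells differed between genotypes at each day. Their counts of calls are to be read beside the whole set of tested genes. At day 0, 26.4% of that set had higher and 27.0% lower levels in the cKO by the same test. These shares rose to 33.7% and 33.6% at day 2, and to 36.7% and 37.8% at day 6. The fibroblast list at day 2 and the neural, mesoderm and germ cell lists at day 6 had calls in both directions, as the whole set did. At day 0 the 10 fibroblast genes, which would mark feeder cells, summed to 1170 to 1236 CPM in parental and 362 to 375 CPM in cKO libraries (9 called lower). Most of that sum was Col1a1 (539.9 and 154.7 CPM), Fbln2 (298.5 and 97.2 CPM) and Col1a2 (206.8 and 59.05 CPM). Col3a1 (74.5 and 21.0 CPM), Postn (40.95 and 13.66 CPM), Thy1 (27.5 and 13.17 CPM) and Pdgfrb (9.373 and 7.325 CPM) came next. Dcn (1.74 and 1.165 CPM), Lum (0.226 and 0.214 CPM) and Fap (0.385 and 0.0919 CPM) were low, and the presence of feeder cells was not tested. The 8 genes of the 2-cell-like list summed to 29.1 to 31.2 and 134 to 137 CPM (8 called higher). At day 2, where 9 of the 10 members were higher, the 7 mesoderm and endothelium genes summed to 60.6 to 65.5 CPM in parental and 8.80 to 10.5 CPM in cKO libraries (6 called lower). The fibroblast genes summed to 208 to 224 and 124 to 153 CPM on that day (2 called higher, 5 lower), and the 2-cell-like genes to 261 to 321 and 362 to 418 CPM (7 higher, 1 lower). At day 6 the 12 extraembryonic endoderm genes summed to 852 to 904 CPM in parental and 1186 to 1336 CPM in cKO libraries (10 higher, 2 lower). Cubn (216.5 and 544.8 CPM) was the largest part of that sum in the cKO. Gata6, the largest part in parental cells, was lower in the cKO (303.6 and 67.95 CPM). The 10 trophoblast genes summed to 323 to 332 and 994 to 1090 CPM (9 higher, 1 lower), the fibroblast genes to 4025 to 4324 and 494 to 595 CPM (1 higher, 8 lower), and the 2-cell-like genes to 0.626 to 1.09 and 16.03 to 18.99 CPM (8 higher). Neural genes summed to 262 to 291 and 60.4 to 70.2 CPM at day 6, with 2 of 7 tested called higher and 4 lower. Nes (149 and 30.8 CPM) and Dcx (104.5 and 0.769 CPM) made up most of that sum in parental cells. Tubb3 (9.34 and 25.1 CPM) and Elavl3 (0.731 and 7.10 CPM) had higher levels in the cKO. Mesoderm and endothelium genes summed to 318.3 to 336.5 and 287.4 to 308.5 CPM at day 6, with 2 of 7 called higher and 3 lower. Kdr was lower in the cKO (225.8 and 12.87 CPM) and Cdh5 higher (90.23 and 276.8 CPM). Germ cell genes summed to 83.3 to 89.1 and 288 to 304 CPM, with 2 of 6 called higher, 3 lower and a median of -0.12. Tfap2c, which is also a trophoblast marker, held most of the germ cell sum in the cKO (38.8 and 246 CPM). Of the defining markers, Ttr was at 0 counts in both genotypes at day 0, Apoa1 in the cKO at day 0, and Tpbpa in both at day 0 and day 2, and at day 6 Neurog2 was at 0 in parental and Sox1 in cKO cells. Klf4, Klf5, Tbx3 and Nr5a2 are also known from such lineages, and the part of these cells in the differences was not tested.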

How the data were processed

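Bulk RNA-seq counts of 18 libraries (6 groups of 3) were used as deposited: whole-number read counts per Ensembl gene, with no normalization. Per the submitters' processing notes, Novoalign, DESeq2 1.10.0 and the builds mm10 and GRCm38 were involved. Which counter, annotation release and strand setting were used is not given in the sources used here. Libraries were grouped by genotype and day in the labels, and replicate numbers follow sample order. Counts were tested with edgeR 4.0.16 in R 4.3.3 (TMM, filterByExpr with minimum count 10 and minimum total count 15, glmQLFit with robust settings, glmQLFTest), with 18 libraries in 1 fit and 12 contrasts. Benjamini-Hochberg adjustment covered 18352 genes, called at adjusted p under 0.05, and the test was checked on simulated data. That check covered only the contrast of genotypes at day 0, with changes in genes of higher mean counts. It does not cover the interactions or members near the floor. SE was derived from the F statistic. A count of 0 was taken as up to 3 counts. Log2 CPM used a prior count of 2. The rule for named genes takes the 10 members, with up to 4 genes of each other list by adjusted p, and 3 nearest profiles per member were computed. Nanog and some marker genes, such as Cubn, Tubb3, Col3a1, Dcn, Lum and Fap, were named outside this rule. Members and lists were chosen with earlier results of these data known. Alternatives were DESeq2 1.42.0, its size factors, library sizes alone, no filter, the compared libraries only, calls of at least 2-fold, and each library left out in turn. The interaction from day 2 to day 6 was chosen after seeing the data.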

Additional observations from a re-analysis of the deposited data

Results flagged for a closer look

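The change with time differed between genotypes for 9 members from day 0 to day 2. On the log2 scale the cKO change minus the parental change was 0.66 for Klf4, 0.998 for Klf5, 1.102 for Esrrb, 1.27 for Tfcp2l1, 1.07 for Tbx3, 1.24 for Prdm14, 0.98 for Nr0b1, 1.02 for Zfp42 and 1.54 for Nr5a2, with the interaction called by edgeR's quasi-likelihood test in each.

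From day 0 to day 6 it was 1.69 for Klf2, 0.44 for Klf4, 1.39 for Klf5, 1.75 for Esrrb, 2.18 for Tfcp2l1, 2.67 for Zfp42 and, in the other direction, -1.13 for Tbx3. Klf4 had 0.25 with scaling by library size only (adjusted p = 0.00559, with 5.82e-09 to 0.00559 over the alternatives). Prdm14 had a fitted 3.68, which rests on parental libraries with 0 counts at day 6 and is no bound. Without replicate 2 of the cKO at day 6 it was 2.87 (adjusted p = 0.0761, with 0.00243 to 0.0761 over the alternatives).

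From day 2 to day 6 it was 1.47 for Klf2, 0.39 for Klf5, 0.65 for Esrrb, 0.90 for Tfcp2l1, 1.64 for Zfp42, -2.21 for Tbx3 and -1.65 for Nr5a2. The 3 interactions share libraries, so their values are not independent of each other.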

How the results depend on the processing

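Requiring a fold of at least 2 left 1 member called at day 0 (1 higher, 0 lower), 0 of those lower at day 6, and 4 members in the interaction from day 2 to day 6 (2 higher). Scaling by library size only moved the median over all genes to -0.20 at day 2 and -0.19 at day 6 between genotypes and to 0.42 from day 0 to day 2 in parental cells, and 1 member was called lower at day 2 and 2 at day 6. Leaving out single libraries gave 1 to 2 members lower at day 6. Among uncalled log2 values, leaving out single libraries gave -0.22 to 0.0032 for Klf2 at day 2, above 0 without cKO replicate 2, and -0.65 to 0.11 for Nr0b1 at day 6, above 0 without parental replicate 3. The Nr5a2 interaction from day 0 to day 6 ran from -0.38 to 0.055, above 0 without parental day 6 replicate 2 (0.0021) or cKO day 6 replicate 2 (0.055). The cause of these changes was not tested. DESeq2 and the fit with no filter kept direction and side of the threshold in all 120 tests (10 members in 12 comparisons). The other counts of called members stayed within 1.5 times under these alternatives, without single libraries too. No paired analysis was possible because the labels give no replicate numbers. Depth limits Prdm14 from day 2 and Nr0b1 at day 6.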
